A study of Homo sapiens with 8 samples.

Results

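The genes described are 9 genes of the extracellular matrix and basement membrane, LAMB3, COL4A3, NID2, FN1, TNC, SPP1, COL13A1, SNED1 and MATN2, chosen by name from the 187 genes of the deposited table, in which all 9 were found. Polyadenylated RNA came from NCI-H295R, an established human adrenocortical carcinoma line used as a model of the steroid-making adrenal cortex. The 4 control libraries came from cells in DMEM-F12 medium with 5% NU-I serum and the ITS supplement (insulin, transferrin and selenium), and the 4 serum-deprived libraries from the same line in that medium with both left out. The sources used here do not give the duration of deprivation, nor whether the libraries of a group were separate cultures, so that their spread may be technical. A single cell line cannot stand for a tissue, and the matrix that stromal or endothelial cells would lay down in an adrenal gland is outside this culture.

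The deposited table holds only genes that the authors had selected as different between these groups, and the 9 genes were taken from it with their differences known. The values of serum-deprived against control cells below are therefore a description and not a test, with adjusted p-values given only to show which calls a setting changes, and no member could have been in the table without differing. Control replicate 1 and serum-deprived replicate 1 stood apart from replicates 2 to 4 of their groups. Across the genes of the table, Spearman correlations were 0.977 to 0.987 among control replicates 2 to 4 and 0.947 to 0.950 between these and replicate 1, and among serum-deprived libraries the same ranges were 0.969 to 0.979 and 0.919 to 0.927. Results that rest on these 2 libraries are given with and without them. Scaled counts are the estimated counts divided by a size factor for each library. The table lacks unchanged genes, so the scale between the groups was set from the gap between genes listed as lower and genes listed as higher. This scale amounts to a shift of -0.21 on the log2 scale. Values given without replicate 1 kept this shift and the size factors from all 8 libraries. Set from replicates 2 to 4 alone, the shift was -0.27.

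Cells surround themselves with 2 broad kinds of matrix. The basement membrane is a thin sheet in which a laminin network and a type IV collagen network are tied together by nidogens. The interstitial matrix between cells is built from fibronectin, fibrillar collagens and adaptor proteins. Matricellular proteins such as tenascin C and osteopontin lie in it and change how cells attach and signal, largely through integrins. In the adrenal cortex, steroid-making cells grow in cords beside sinusoids with a basement membrane, and laminin, collagen IV and fibronectin are known to influence adrenocortical cells in culture.

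The promoter letters are shown for the 3 basement membrane genes and for FN1 and TNC, because these genes carry the contrast in direction described below. They come from RefSeq windows on GRCh38.p14, read 5′ to 3′ on the strand of each gene and ending at the base before a RefSeq transcript start. The LAMB3 window belongs to the most downstream of its 3 RefSeq starts. For COL4A3 only the 111 bases between its first annotated base and that of the divergent neighbour COL4A4 (GENCODE 29) are shown. COL4A4, the partner chain of COL4A3 in type IV collagen, was not analysed here. Capitals mark matches to any of 7 motifs, given after the sequences.
LAMB3, chr1:209651375-209651624, minus strand: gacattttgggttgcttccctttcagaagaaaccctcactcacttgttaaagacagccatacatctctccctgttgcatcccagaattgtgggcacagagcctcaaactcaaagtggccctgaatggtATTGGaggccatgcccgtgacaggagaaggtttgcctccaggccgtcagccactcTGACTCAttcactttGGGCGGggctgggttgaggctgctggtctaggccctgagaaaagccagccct
COL4A3, chr2:227164454-227164564, plus strand: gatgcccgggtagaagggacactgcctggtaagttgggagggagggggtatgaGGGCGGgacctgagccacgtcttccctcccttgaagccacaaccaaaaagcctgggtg
NID2, chr14:52069060-52069309, minus strand: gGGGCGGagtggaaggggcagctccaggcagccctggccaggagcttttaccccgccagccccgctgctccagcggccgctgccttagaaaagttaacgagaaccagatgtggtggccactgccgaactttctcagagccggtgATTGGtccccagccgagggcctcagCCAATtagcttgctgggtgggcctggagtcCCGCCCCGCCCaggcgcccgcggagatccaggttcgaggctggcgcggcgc
FN1, chr2:215436069-215436318, minus strand: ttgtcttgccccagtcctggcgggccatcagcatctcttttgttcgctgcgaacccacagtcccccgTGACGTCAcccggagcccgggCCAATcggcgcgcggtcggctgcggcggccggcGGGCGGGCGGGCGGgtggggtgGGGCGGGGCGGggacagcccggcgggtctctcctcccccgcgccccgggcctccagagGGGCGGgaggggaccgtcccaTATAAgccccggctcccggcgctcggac
TNC, chr9:115118158-115118407, minus strand: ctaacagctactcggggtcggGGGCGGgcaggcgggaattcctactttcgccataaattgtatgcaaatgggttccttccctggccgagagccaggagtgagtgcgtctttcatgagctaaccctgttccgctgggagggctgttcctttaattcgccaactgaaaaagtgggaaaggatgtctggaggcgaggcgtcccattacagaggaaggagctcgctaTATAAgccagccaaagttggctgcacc

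Windows of 250 bases upstream of a RefSeq start were searched on both strands in 8 of the 9 genes, with 10 windows in all. The motifs of factors induced by growth factors were AP-1 (TGANTCA), EGR1 (GCGNGGGCG) and ETS (CCGGAAGT). The cyclic AMP response element, CRE, was searched as TGACGTCA. General promoter elements were the GC box, written GGGCGG, then the CCAAT box by the letters of its name, and the core of the TATA box, TATAA. The motifs were picked after the sequences had been seen, and overlapping matches of the GC box were counted separately. The EGR1 and GC box letters can overlap each other. FN1 and TNC both held TATAA on their own strand, starting 28 and 27 bases before the start, and COL13A1 held it 236 bases before. TATAA was in 18.9% of the 35116 windows of all genes. FN1 alone of the 8 genes held the CRE letters, 183 bases before its start and beside a CCAAT box, against 1.65% of all windows, and it also held 6 matches of the GC box. LAMB3 alone held the AP-1 letters, 67 bases before the start shown (6.57% of all windows), and SNED1 alone the EGR1 letters (8.41%). The LAMB3 windows not shown held only a GC box, so AP-1 was in 1 of the 10 windows. No window of the 8 genes held the ETS letters (3.42%). GC boxes were in 6 of the 8 genes, among them all 3 basement membrane genes, or in 8 of the 10 windows, beside 42.6% of all windows. The CCAAT box was in FN1, LAMB3 and NID2 (32% of all windows). In the 227 windows of genes of the deposited table the shares were 52.4% for the GC box, 14.5% for EGR1 and 0.881% for ETS. There they were 5.29% for AP-1, 1.76% for CRE, 28.6% for the CCAAT box and 21.1% for TATAA. Shares are per window, and a gene may have several windows. The SPP1 window held no match to any of the 7 motifs, and 44.8% of its bases were G or C against 76.4% in FN1 and a median of 58% over all windows. Such matches describe the letters, not binding, and no motif was in every lower gene searched and absent from both higher ones.

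Among the 3 basement membrane genes, NID2 and COL4A3 were higher and LAMB3 was lower in serum-deprived cells, whereas all 6 interstitial and matricellular genes were lower. COL13A1, a transmembrane collagen, was counted with these 6 only because it is no basement membrane component. The median log2 fold change was 0.48 for the basement membrane genes, with a range from -1.39 to 0.78, and -0.81 for the other 6 genes, with a range from -0.91 to -0.56. Over all 187 genes the median was -0.22, with 93 genes higher and 94 lower. All 9 members had an adjusted p under 0.05 in edgeR's quasi-likelihood test, as had 85% of the 187 genes (48.1% lower and 36.9% higher). Nothing is read from this count, since the table was selected on the same contrast. Without replicate 1 of both groups, on the scale set from all 8 libraries, the medians were 0.54 and -0.90. In that setting all 187 genes of the table passed, against 159 with all 8 libraries, so the sharper values were not particular to the members. Without scaling, 21 genes passed as higher and 91 as lower over the table, against 69 and 90 with it. In these bulk libraries fewer cells of a kind and less RNA per cell cannot be told apart.

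**Figure D1:**
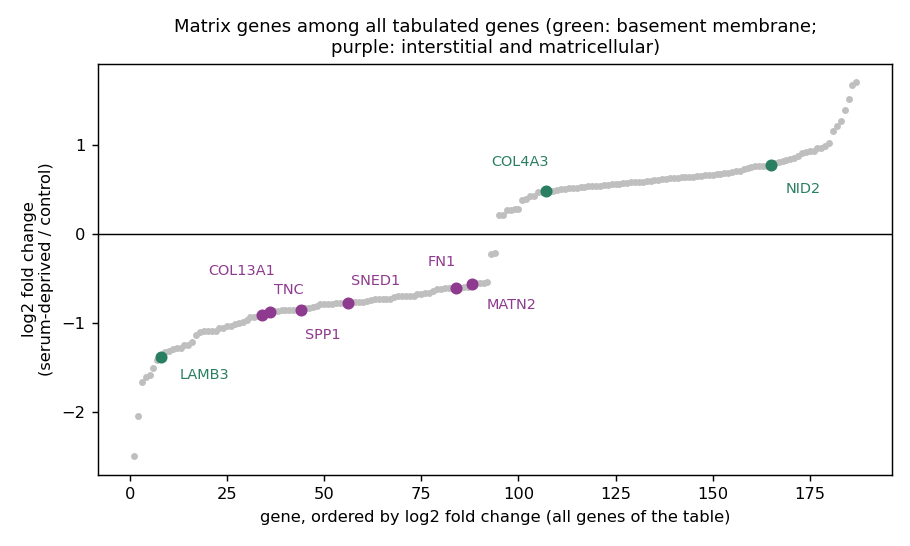
Log2 fold change (serum-deprived over control, vertical axis) of the 187 genes of the deposited table in order (horizontal axis), each point 1 gene, with the 3 basement membrane genes in green and the 6 interstitial and matricellular genes in purple. LAMB3 is the 8th from the low end, the 6 purple genes lie between -0.91 and -0.56, and COL4A3 and NID2 lie above 0. The empty stretch around 0 comes from the selection of the table.

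LAMB3 encodes the β3 chain of the laminin that anchors epithelial cells through hemidesmosomes. The gene is on chromosome 1 from 209614870 to 209652466 on the minus strand (GRCh38, GENCODE 29). Its scaled counts were 37.2, 36.3, 35.7 and 38.0 in control replicates 1 to 4 and 10.6, 16.2, 16.7 and 11.8 in serum-deprived replicates 1 to 4. The controls lay closer together than the counting error of reads this few, given below, so their small SD is not a measure of precision. Every serum-deprived library was at less than the lowest control, so that the groups did not overlap. The mean went from 36.8 ± 0.991 to 13.8 ± 3.09 (SD over 4 libraries, as for all means here). The log2 fold change was -1.39 ± 0.23 (SE), the largest in size of the 9 genes over all 8 libraries. Without replicate 1 of both groups it was -1.27, level with TNC at -1.27. Without serum-deprived replicate 1 alone, TNC was larger in size, at -1.40 against -1.28 for LAMB3. LAMB3 also had the fewest reads of the 9, with 9 to 18 in the serum-deprived libraries. The exact 95% Poisson interval around the 9 reads of serum-deprived replicate 1 runs from 4.12 to 17.1, and around the 37 reads of its control from 26.1 to 51.0 (counting error only).

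COL4A3 encodes the α3 chain of type IV collagen, which joins the α4 and α5 chains in the network of specialised basement membranes such as that of the kidney glomerulus. The gene lies at chromosome 2 from 227164565 to 227314792 on the plus strand. Its scaled counts were 187, 221, 193 and 178 in the controls and 222, 293, 266 and 307 in the serum-deprived libraries, in the order of the replicate numbers. The groups did not overlap, but the highest control, at 220.9, was almost level with the lowest serum-deprived library, at 221.6, and in the unscaled counts the groups overlapped. The means were 195 ± 18.5 and 272 ± 37.7, a log2 fold change of 0.48 ± 0.15 (SE). Of the 9 genes this difference was the smallest in size on the scale used. The rank depends on that scale. With median-of-ratios size factors COL4A3 was at 0.61, larger in size than MATN2 at -0.41 and FN1 at -0.45. Without scaling COL4A3 was at 0.28 with an edgeR adjusted p of 0.254, while it passed in the other 17 alternative settings.

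NID2 encodes nidogen 2, which binds laminin and type IV collagen and links their networks (chromosome 14, 52004803 to 52069228, minus strand). Scaled counts were 254, 368, 344 and 347 in the controls and 584, 599.7, 540.01 and 539.98 after deprivation. All 4 serum-deprived libraries lay close together and far above the controls, of which replicate 1 was the lowest. The mean went from 328 ± 50.6 to 566 ± 30.5, a log2 fold change of 0.78 ± 0.14 (SE) or 1.72-fold. Exons of NID2 share 1915 bases with those of RTRAF on the opposite strand. The kit marks strand, but whether the counting used it is not stated, so reads of the pair may not have been told apart.

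Ratios of counts within a library do not depend on the scale between libraries. The count of NID2 divided by that of LAMB3 was 6.84, 10.1, 9.63 and 9.14 in the controls and 55.0, 36.9, 32.3 and 45.7 in the serum-deprived libraries. COL4A3 over LAMB3 was between 4.69 and 6.09 in controls and between 15.9 and 26.0 after deprivation. Both ratios were thus higher in every serum-deprived library than in any control, whatever the scaling. The table was selected on this contrast, which favours such a separation, so it is a description only. NID2 over COL4A3 overlapped between the groups, with 1.36 to 1.95 in controls and 1.76 to 2.63 after deprivation.

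**Figure D2:**
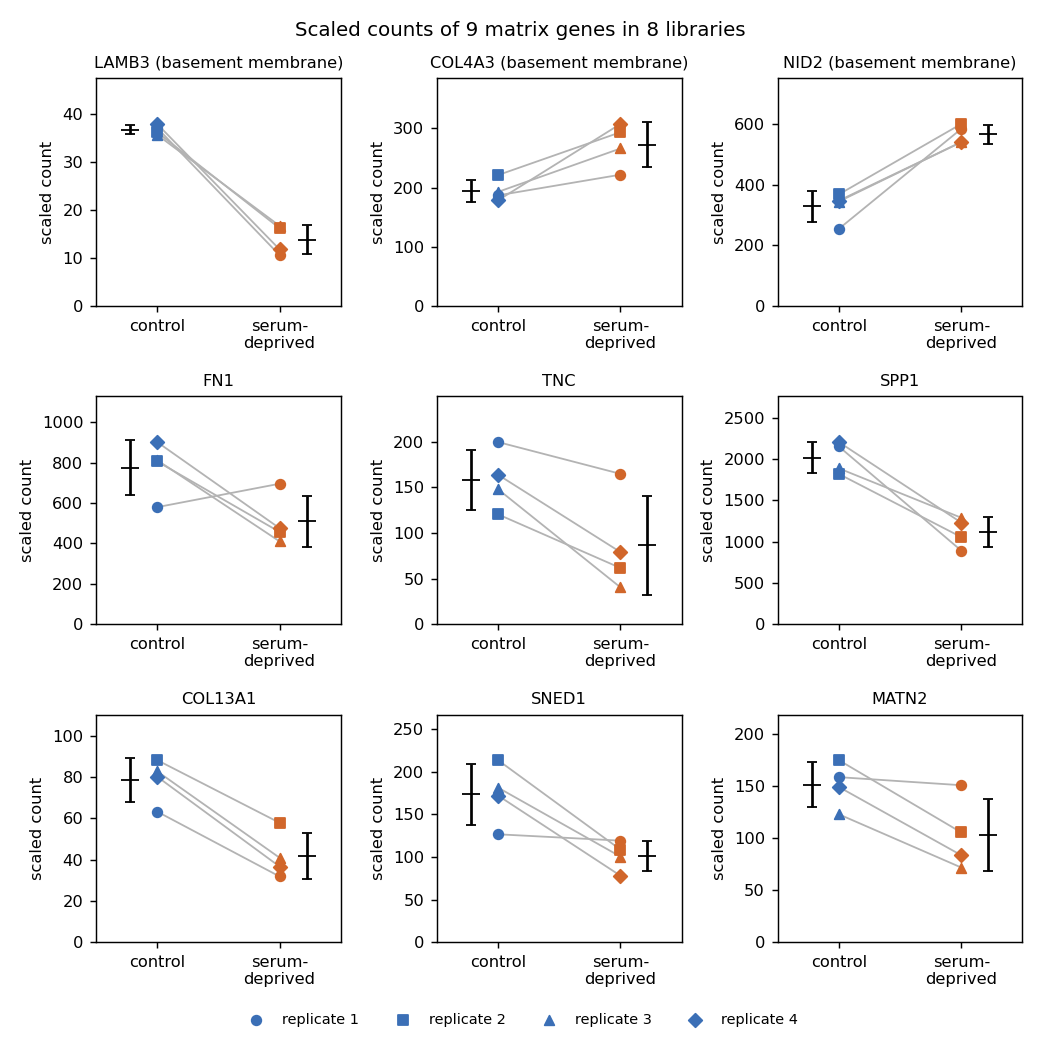
Scaled counts (vertical axes, from 0) of the 9 matrix genes in control and serum-deprived libraries. Points are libraries with a symbol for each replicate number, grey lines join the same number, and black bars are the mean ± SD of 4 libraries. LAMB3, COL4A3, NID2, SPP1, COL13A1 and SNED1 show no overlap between the groups, while in FN1, TNC and MATN2 replicate 1 (circles) of the serum-deprived group reaches into the range of the controls.

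FN1 encodes fibronectin, the glycoprotein that cells assemble into fibrils through the integrin α5β1 and that binds collagens and other matrix proteins. It lies at chromosome 2 from 215360440 to 215436172 on the minus strand. Its scaled counts were 579, 806, 812 and 902 in the controls and 696, 457, 410 and 475 in the serum-deprived libraries. Replicate 1 was the lowest control and the highest serum-deprived library, and through it alone the groups overlapped. The means were 775 ± 138 and 509 ± 127, a log2 fold change of -0.61 ± 0.20 (SE), and without replicate 1 of both groups it was -0.91.

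TNC encodes tenascin C, a matricellular protein made in development, wound healing and tumours that counters cell adhesion to fibronectin (chromosome 9, 115019578 to 115118257, minus strand). The controls had scaled counts of 199.8, 121, 148 and 164 and the serum-deprived libraries 165, 61.6, 40.4 and 79.1. Replicate 1 was the highest library of both groups, and serum-deprived replicate 1 lay above 3 of the 4 controls. The means were 158 ± 33.1 and 86.5 ± 54.6, a log2 fold change of -0.88 ± 0.37 (SE) with all libraries and of -1.27 without replicate 1 of both groups. The spread of TNC after deprivation was the widest of the 9 genes, with a coefficient of variation of 63.1%, where the median was 22.3% over the 9 genes and 19.1% over the table. Serum-deprived replicate 1 carried much of this spread. Without it, a setting chosen after seeing the data, the coefficient of TNC was 32.1%, beside 24.9% for COL13A1, the next of the 9, and medians of 16.6% over the 9 genes and 11.2% over the table. The adjusted p of TNC was under 0.05 in 9 of the 18 alternative settings and reached 0.116 in edgeR without serum-deprived replicate 2.

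SPP1 encodes osteopontin, a secreted phosphoprotein that binds integrins and CD44 (chromosome 4, 87975650 to 87983426, plus strand). Scaled counts were 2156, 1823, 1890.2 and 2209 in the controls and 892, 1056, 1291 and 1232 in the serum-deprived libraries. All serum-deprived values lay below all controls, and serum-deprived replicate 1 was the lowest. The means were 2019.6 ± 191.6 and 1118 ± 180, a log2 fold change of -0.85 ± 0.14 (SE), which left 55.4% of the control level. Without replicate 1 of both groups the values were -0.73 for SPP1, 0.67 for NID2 and -1.27 for LAMB3.

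COL13A1 encodes the type XIII collagen chain, a transmembrane collagen found at cell adhesion sites and at the neuromuscular junction (chromosome 10, 69801867 to 69964275, plus strand). Its scaled counts were 63.3, 88.2, 82.8 and 80.2 in the controls and 31.8, 57.8, 40.9 and 36.6 after deprivation. The groups did not overlap, and replicate 1 was the lowest library of both. The log2 fold change was -0.91 ± 0.22 (SE), from a mean of 78.6 ± 10.8 to 41.8 ± 11.3.

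SNED1 encodes a secreted matrix glycoprotein with fibronectin type III repeats, and lies at chromosome 2 from 240998838 to 241095568 on the plus strand. Scaled counts were 127, 214, 181 and 172 in the controls and 119, 109, 100.4 and 77.98 in the serum-deprived libraries. The groups were separated by a narrow margin, between the 127 and the 119 of the replicate 1 pair, and the log2 fold change was -0.77 ± 0.20 (SE), or -0.98 without replicate 1 of both groups. Its exons share 5071 bases with MTERF4 on the opposite strand, with the same limit as for NID2. Smaller exon overlaps with opposite-strand genes, of 129 and 120 bases, were annotated for TNC and COL4A3.

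MATN2 encodes matrilin 2, an adaptor that links collagens and other matrix proteins into filaments and also binds basement membrane components. Its scaled counts were 159, 175, 123 and 149 in the controls and 151, 106, 71.8 and 83.6 after deprivation. As in FN1 and TNC, serum-deprived replicate 1 lay within the range of the controls and the other 3 below it. The log2 fold change was -0.56 ± 0.23 (SE), the second smallest in size of the 9 on the scale used. Without replicate 1 of both groups it was -0.78. The adjusted p of MATN2 was under 0.05 in 8 of the 18 alternative settings and reached 0.147 in edgeR with median-of-ratios size factors.

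The groups did not overlap in 6 of the 9 genes, beside 66.3% of the genes of the table. Estimated counts were whole numbers (within 0.01 in all 8 libraries) in 6 of the 9 genes, all but FN1, TNC and MATN2, and in 69 of the 187 genes of the table (36.9%). FN1 was within 0.0382 of a whole number throughout, while TNC and MATN2 departed by up to 0.459 and 0.467. The groups of these 3 genes overlapped. Over the table the groups overlapped in 48 of the 118 genes without whole counts and in 15 of the 69 with them, and this difference was not tested.

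Titles number the replicates alike in both groups, and the ratio of the same-numbered libraries gives a reading in each pair. In pair 1, LAMB3, COL4A3 and NID2 had log2 ratios of -1.76, 0.25 and 1.198. In pairs 2, 3 and 4, LAMB3 stood at -1.14, -1.07 and -1.64, COL4A3 at 0.41, 0.46 and 0.78, and NID2 at 0.71, 0.65 and 0.64. Thus the basement membrane genes kept their directions in all 4 pairs. LAMB3 and NID2 had their widest ratios in pair 1, whereas COL4A3 had its narrowest there. Without scaling, COL4A3 was nearly level in pair 1, at 0.02, and stood at 0.11 in pair 2.

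The interstitial and matricellular genes split in pair 1. SPP1 and COL13A1 stood at -1.27 and -0.98 there, within or beyond their range in the other pairs, which was -0.84 to -0.55 for SPP1 and -1.12 to -0.60 for COL13A1. TNC, SNED1 and MATN2 stood at -0.28, -0.09 and -0.07, and FN1 at 0.26, so that fibronectin was higher in serum-deprived than in control cells of that pair. In pairs 2 to 4 these 4 genes were lower throughout, with ratios from -0.99 to -0.82 for FN1, from -1.86 to -0.96 for TNC, from -1.14 to -0.85 for SNED1 and from -0.83 to -0.73 for MATN2. Without scaling FN1 in pair 1 was nearly level, at 0.03.

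Of the 36 ratios, 35 had the direction listed in the authors' deposited table. In pair 1 it was 8 of 9 genes, where 82.4% of all 187 genes had the listed direction. In pairs 2, 3 and 4 it was 9 of 9 in each, beside 98.9%, 99.5% and 100% of the table. Nothing is read from these counts, since the table was selected on this contrast. The listed values also lay close to a fit of replicates 2 to 4 alone, given next, so those pairs could hardly disagree. In the authors' deposited table the log2 fold change was -0.87 for FN1, -1.22 for TNC, -0.93 for SNED1 and -0.73 for MATN2, larger in size than over 8 libraries. For SPP1 it was -0.68 and for LAMB3 -1.23, both smaller in size than over 8 libraries. For NID2, COL4A3 and COL13A1 it was 0.71, 0.59 and -0.84. All 9 values lay nearer to the fit without replicate 1 of both groups than to that over 8 libraries. That fit gave -0.91 for FN1, -1.27 for TNC, -0.98 for SNED1, -0.78 for MATN2, -0.73 for SPP1 and -1.27 for LAMB3. For NID2, COL4A3 and COL13A1 it gave 0.67, 0.545 and -0.89. Whether the authors' own fit left out replicate 1 was not tested. Pair 1 is 1 library per group and has no replicate check of its own.

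**Figure D3:**
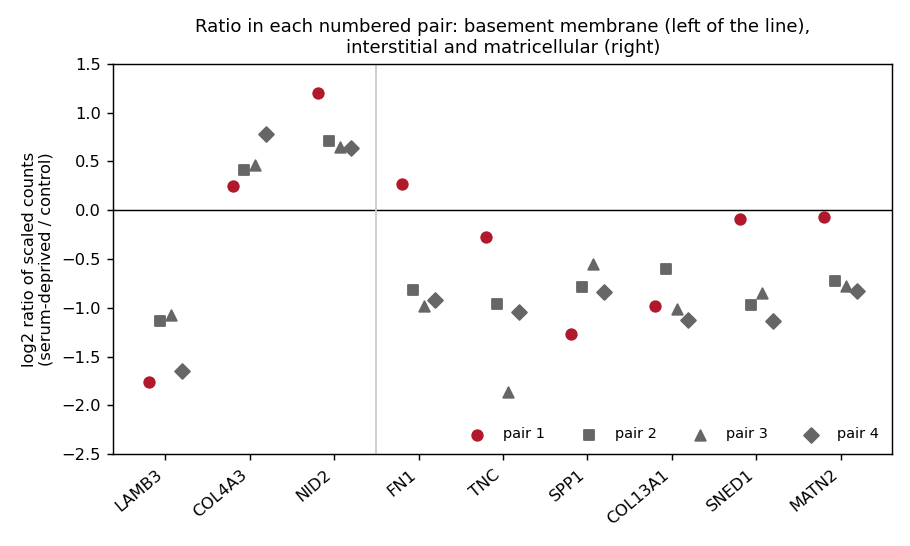
Log2 ratio of scaled counts, serum-deprived over control (vertical axis), in each numbered pair for the 9 genes (horizontal axis), with pair 1 in red and pairs 2 to 4 in grey. In pair 1, SNED1, MATN2 and TNC lie near 0, FN1 at 0.26 and COL4A3 at 0.25, below its range in pairs 2 to 4. LAMB3, NID2, SPP1 and COL13A1 lie within or beyond their range in pairs 2 to 4.

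Levels of different genes were compared per kilobase of the longest protein-coding transcript in GENCODE 29. SPP1 had the highest level of the 9 by far, with 1277 ± 121 scaled counts per kilobase in controls and 707 ± 114 after deprivation, the 17th highest mean of the table. FN1 and NID2 followed. In controls FN1 was at 87.0 ± 15.4 and NID2 at 68.2 ± 10.5 per kilobase, and their ranges overlapped. After deprivation the order was turned, with NID2 at 118 ± 6.35 and FN1 at 57.2 ± 14.3 and no overlap. The count of NID2 divided by that of FN1 was between 0.385 and 0.456 in controls and 0.839, 1.31, 1.32 and 1.14 in serum-deprived replicates 1 to 4, pair 1 included. The selection of the table favours this separation too. COL4A3 over FN1 overlapped between the groups, with 0.198 to 0.322 in controls and 0.319 to 0.649 after deprivation.

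MATN2 came next in controls at 36.9 ± 5.31 per kilobase, above the ranges of COL13A1, COL4A3, SNED1 and TNC. These 4 lay at 24.7 ± 3.38, 24.0 ± 2.28, 21.2 ± 4.39 and 20.7 ± 4.33, within one another's spread. LAMB3 was lowest in both groups, at 8.54 ± 0.230 and 3.22 ± 0.718. After deprivation COL4A3, at 33.6 ± 4.66, stood above COL13A1, SNED1 and TNC in every library, and overlapped MATN2. The transcripts in use are not known from gene counts, and a shorter or longer form would move these levels but not the ratios between libraries, as long as the form stays the same.

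**Figure D4:**
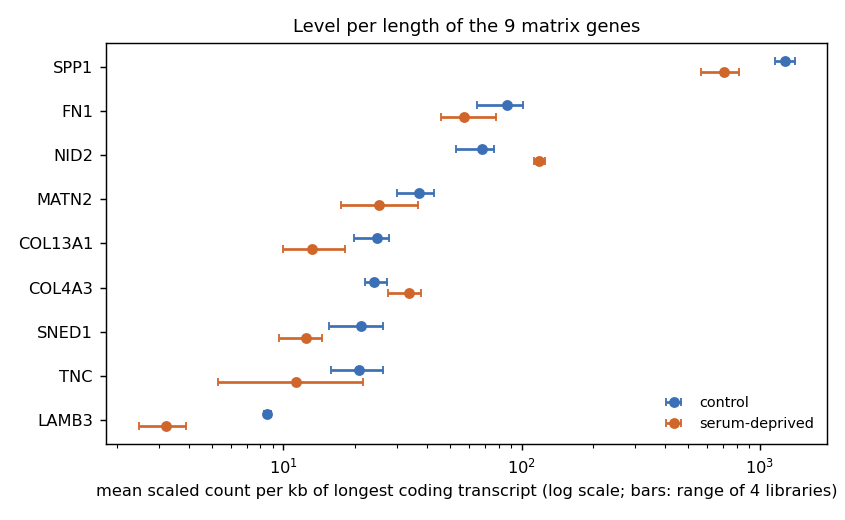
Mean scaled count per kilobase of the longest coding transcript (horizontal axis, log scale) of the 9 genes in control and serum-deprived libraries, with bars for the lowest and highest of 4 libraries. SPP1 is highest and LAMB3 lowest in both groups, and NID2 passes FN1 after deprivation.

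The profile of each gene over the 8 libraries was compared with those of the other 178 genes by the root mean square difference of log2 scaled counts, each profile centred on its mean. NID2 had the closest partner, SEMA6C, at 0.048, beside a median of 0.741 to all other genes. COL13A1 was nearest to ETV4 at 0.116, COL4A3 to TRPM3 at 0.131 and SPP1 to MAP3K5 at 0.137. SNED1 was nearest to UNC5B at 0.169, FN1 to VGF at 0.189 and LAMB3 to FITM1 at 0.210. TNC and MATN2 had the same nearest gene, TESC, at 0.420 and 0.211. Every member had at least 6 genes outside the 9 that were nearer to it than any other member. Among the members FN1 and SNED1 were closest, at 0.233, followed by COL4A3 and NID2, at 0.257. These distances share libraries and size factors and include the difference between the groups.

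Of 35 listed basement membrane genes the table held the 3 described, 2 higher and 1 lower. Of 51 interstitial and matricellular glycoproteins it held 5, all lower, and of 32 fibrillar and other collagens COL13A1 alone. No gene of the lists of proteoglycans (31 genes), integrins and matrix receptors (27), matrix proteases and their inhibitors (52) or collagen modification and crosslinking (22) was in the table, and these genes were not analysed here. On the list of TGF-β and BMP ligands, receptors and targets, a pathway that regulates matrix genes in many cells, 3 of 28 genes were in the table and all passed as lower (edgeR, over 187 genes), where 48.1% of the table did so. ID3, an inhibitor of basic helix-loop-helix factors, went from 163 ± 37.2 to 95.7 ± 12.8 scaled counts, and its relative ID1 from 100.02 ± 15.4 to 46.7 ± 13.8. INHA, the inhibin α subunit, went from 315 ± 19.0 to 185 ± 16.4 and is on the list of adrenocortical markers too. Of the 18 markers on that list 4 were in the table, INHA included, and all 4 passed as lower, with a median log2 fold change of -0.93. HSD3B2, an enzyme of steroid synthesis, had scaled counts of 1769 ± 682 in controls and 661 ± 387 after deprivation. MRAP, which carries the receptor for ACTH to the cell surface, had 88.2 ± 21.8 and 41.1 ± 8.00, and DLK1, a membrane protein related to Notch ligands, had 72897 ± 4152 and 49744 ± 3461. Nothing is read from either count, since the table was selected on this contrast and the lists share INHA. Markers of fibroblasts (10 genes), endothelium (10), smooth muscle and pericytes (8), leukocytes (10) and adrenal medulla (9) were not in the table, so whether other cells contributed to the matrix transcripts was not tested.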

How the data were processed

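Polyadenylated RNA of 8 NCI-H295R samples was sequenced, per the labels' protocols, in stranded libraries with single reads of 76 bases. Deposited by the authors were estimated counts, not scaled to depth, for 187 selected genes, and their own log2 fold change and FDR (an adjusted p-value). Cutadapt, FastQC, kallisto and edgeR with GRCh38 are named in the submitters' processing notes, without versions. Depth per library is unknown, since the column sums of 262373 to 359195 cover the selected genes only. There were 0 count columns of other samples.

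Size factors (0.846 to 1.21) were medians of ratios within each group (pseudocount 0.5), followed by a shift of -0.21 (log2) between groups that centred the widest empty interval with at least 20 genes on each side. Counts were rounded and fitted for all 187 genes in edgeR 4.0.16 (R 4.3.3, quasi-likelihood, no covariate, two-sided, Benjamini-Hochberg, threshold 0.05). SEs came from the F statistic. The fitting step was checked on simulated data. Alternatives were other scalings, limma-voom (limma 3.58.1), DESeq2 1.42.0, a minimum mean count of 100, a replicate block and omissions of libraries. The omissions kept the size factors and the shift set from all 8 libraries. The replicate numbers, which come from the titles, were taken to pair the libraries as a description. Deviations from the group mean correlated weakly across genes between equal numbers (0.216, 0.377, 0.111 and 0.122, in their order). For each control library the equal number was the best match. These values cannot show that equal numbers were handled together. No libraries were duplicates. Python 3.11.15 and scipy 1.17.1 served the other steps.

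The members, gene lists and tests were chosen with earlier results of these data known. The text names all 9 members, every gene of the table that is on a list, and for each member the nearest profile outside the 9. Protein sequences were not analysed here.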

Additional observations from a re-analysis of the deposited data

How the results depend on the processing

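The directions of all 9 genes were kept in each of the 160 member values computed under 18 alternative settings. This is a weak check, since the table was selected on the same contrast. Each value moved by less than the SD of that gene's ratios over the 4 pairs. These SDs include pair 1 and were wide for TNC (0.65) and FN1 (0.59), so that sizes were less stable than directions. Over the settings TNC ran from -1.40 to -0.63 and FN1 from -0.91 to -0.45. LAMB3 and COL13A1 had no value at a minimum mean count of 100. The number of members passing was 6 to 9 in all settings and also 6 to 9 on leaving out 1 library, with TNC and MATN2 lost most often, COL4A3 lost without scaling and FN1 lost with median-of-ratios size factors and without control replicate 4. On leaving out 1 library, 133 to 173 genes of the table passed, the basement membrane median was 0.42 to 0.57 and that of the other 6 genes -0.82 to -0.70. Without scaling the basement membrane median was 0.28, which follows from the shift between the groups. With a minimum mean count of 100, 91 of the 107 genes fitted passed. With the numbers as a replicate block all 9 members and 162 genes passed, and the medians were 0.48 and -0.81, so the pairing changed no call of a member. Of the 36 pair ratios, 35 had the listed direction also with a pseudocount of 5 and without scaling. Depth is unknown, and the low counts of LAMB3 limit its precision. No group of 4 libraries had a library apart by Dixon's criterion among the 18 groups of the members. With only 4 values per group this criterion can miss a library that stands apart, so nothing is read from it. It did not call NID2 in control replicate 1, where the gap to the next library was 0.79 of the range. FN1 in serum-deprived replicate 1, at 0.77, was not called either. Over the genes of the table, replicate 1 of both groups stood apart by correlation, as given above.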
